A study of Homo sapiens with 21 samples.

Results

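Genes of serine synthesis, one-carbon metabolism and amino acid supply were followed in A673 cells, an established Ewing sarcoma line driven by the EWS/FLI fusion transcription factor. The 10 genes were PHGDH, PSAT1, PSPH, SHMT1, SHMT2, MTHFD2, ASNS, SLC1A4, SLC1A5 and SLC7A2, out of 57820 genes in the count table, 48035 with any count and 30549 tested. All 10 passed the filter on low counts. The first 9 were listed for their roles, although with earlier results of these data known. SLC7A2 was instead chosen by its measured levels, because it was higher in iLuc than in iEF and lower in DAF and del22, so its values in those 4 groups are given as a description with no test.

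The study asked which functions of EWS/FLI each altered form of the fusion can supply once the endogenous protein is removed. RNA was sequenced in 21 libraries, 7 groups of 3, numbered as replicate sets 1, 2 and 3. All cells received a retroviral shRNA on day 1 and a retroviral cDNA vector on day 5, and were kept under selection with puromycin (2 µg/ml) and then also hygromycin (400 µg/ml) until day 16. The iLuc cells carried an shRNA against luciferase with an empty vector and kept their own fusion. The iEF cells carried an shRNA against EWS/FLI with an empty vector and served as the depleted baseline. The other 5 groups carried the same EWS/FLI shRNA and a 3XFLAG-tagged cDNA. WT-EF encoded wildtype EWS/FLI, and del22 lacked the EWS domain. DAF had tyrosines of the N-terminal EWS repeats changed to alanine, mut9 had a large internal deletion of EWS, and DAF-mut9 joined tyrosine-to-alanine changes with the mut9 deletion. The columns read as DAF-mut9 were named differently in the table, and every DAF-mut9 value depends on that reading. All groups came from 1 cell line under double drug selection, and the study describes its replicates as repeated knockdown and rescue experiments, so p-values measure the spread between repeats in this line.

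Serine is made from the glycolytic intermediate 3-phosphoglycerate in a chain of reactions. PHGDH oxidizes it, PSAT1 adds an amino group taken from glutamate, and PSPH removes the phosphate. SHMT1 in the cytosol and SHMT2 in mitochondria then turn serine into glycine and load a one-carbon unit onto folate, which MTHFD2 oxidizes in mitochondria for the making of purines, thymidylate and methyl groups. ASNS makes asparagine from aspartate and glutamine. SLC1A4 and SLC1A5 are sodium-dependent exchangers of neutral amino acids such as serine and glutamine, and SLC7A2 carries the cationic amino acids arginine, lysine and ornithine. Many of these genes are known targets of ATF4, a transcription factor whose translation rises when amino acids are scarce.

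Library totals ran from 32.9 to 46.2 M counts. FLI1 lay at 61.3, 60.6 and 89.0 CPM (counts per 1 M after TMM scaling of library sizes) in iLuc and at 20.8, 20.0 and 21.1 CPM in iEF, so the targeted transcript followed the labels. FLI1 reads also come from the cDNAs, and in WT-EF their level was not called apart from iEF (log2 difference 0.24 ± 0.13, edgeR adjusted p-value 0.196). Of 7 Ewing sarcoma markers, PRKCB, LIPI, STEAP1, NR0B1, CCND1 and NKX2-2 were detected in every library, and the summed level of the list was 2742 to 3025 CPM in iLuc and 1410 to 2000 CPM in iEF. CD99 was counted at or below 0.219 CPM in all libraries, which is not taken here as absence of its transcript. Why its count was so low was not tested. Of 7 markers of blood, epithelial and endothelial cells, CD3E and PECAM1 did not pass the filter and the sum of the others lay between 0.982 and 2.47 CPM. Replicate 3 of iLuc stood apart from its mates. Among 10779 genes with a mean of at least 5 CPM, 3.52% lay more than 2-fold above or below both other iLuc libraries, the highest share of any library, and 6 of the 10 genes were among those below. The next highest were iEF replicate 2 with 2.52% and iEF replicate 3 with 1.09%. Calls of the 10 genes that involve iLuc are given with and without iLuc replicate 3.

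**Figure D1:**
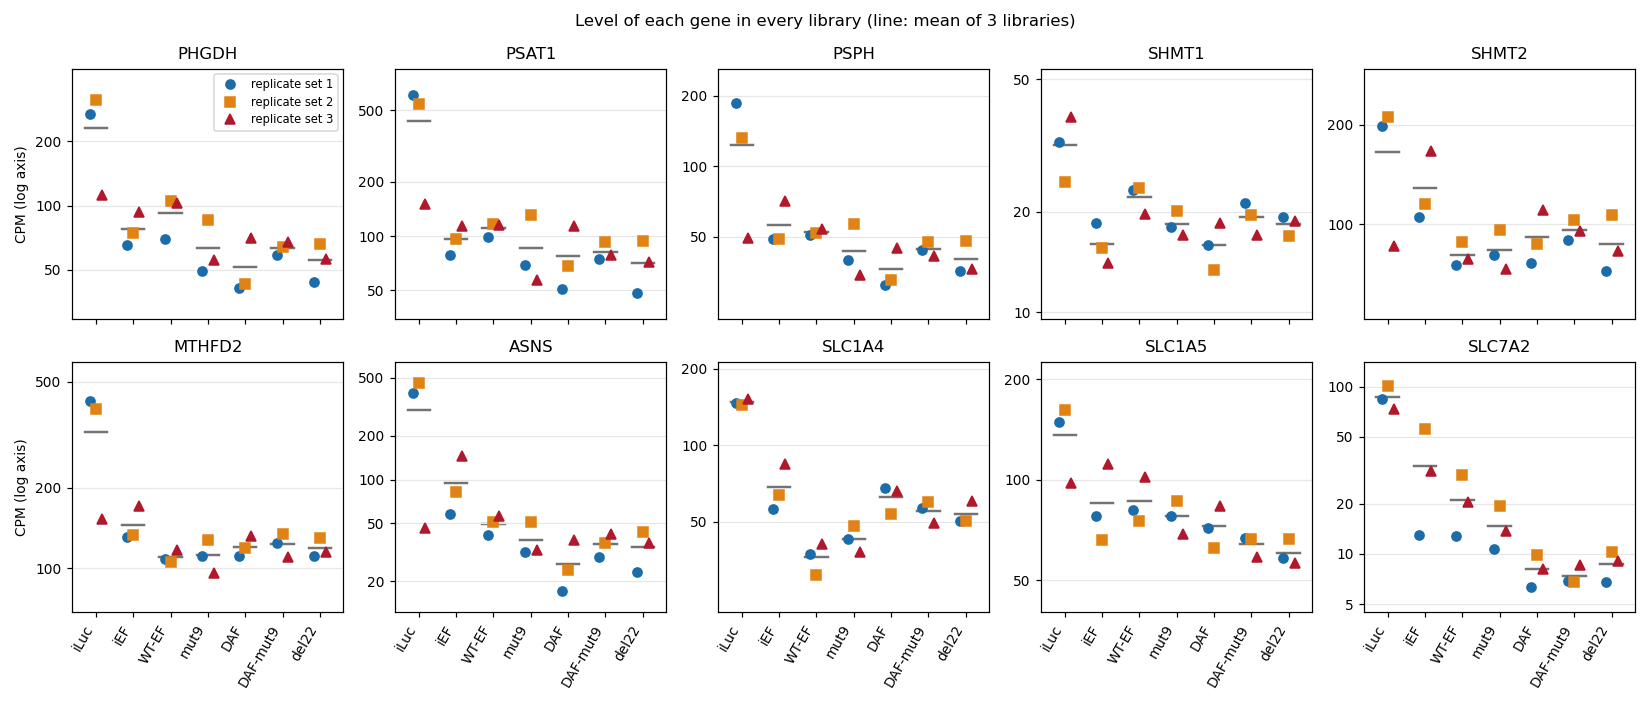
CPM of the 10 genes (vertical log axis) in every library of the 7 groups (horizontal axis), with a symbol for each replicate set and a line at the mean of 3 libraries. In iLuc, replicate set 3 lies far below sets 1 and 2 for PHGDH, PSAT1, PSPH, SHMT2, MTHFD2 and ASNS, while SHMT1 and SLC1A4 do not show this split, and SLC7A2 falls to between 6.30 and 10.2 CPM in DAF, DAF-mut9 and del22.

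Cells that kept their endogenous fusion had more transcript of the serine pathway than depleted cells. Of the 9 tested genes, 8 were called higher in iLuc than in iEF and none lower, where 18.7% of all 30549 tested genes were called higher and 22.4% lower. Their median log2 difference was 1.12, against 0.01 over all genes tested. A gene was called in edgeR's quasi-likelihood test where its p-value, adjusted by Benjamini-Hochberg, lay under 0.05.

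PSAT1, the aminotransferase, had 609, 545 and 152 CPM in the 3 iLuc libraries and 78.2, 97.0 and 113 CPM in the 3 iEF libraries. All iLuc values lay above all iEF values, but replicate 3 came close. The fitted difference was 4.53-fold, on the log2 scale 2.18 ± 0.37 (SE), and its adjusted p-value was 6.83e-05. PHGDH, the entry enzyme, had 269, 313 and 113 CPM in iLuc and 65.2, 74.1 and 93.3 CPM in iEF. The groups did not overlap, and the difference was 3.01-fold (log2 1.59 ± 0.27, adjusted p-value 6.96e-05). PSPH, the phosphatase, had 187, 132 and 49.7 CPM in iLuc and 49.1, 48.9 and 71.0 CPM in iEF. Here iLuc replicate 3 fell within the iEF range, and the 2.13-fold difference (log2 1.09 ± 0.30, adjusted p-value 0.00581) was lost without iLuc replicate 1, at an adjusted p-value of 0.112.

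SHMT1, the cytosolic serine hydroxymethyltransferase, had 32.5, 24.5 and 38.5 CPM in iLuc and 18.5, 15.6 and 14.0 CPM in iEF. Replicate 3 was its highest iLuc library, the reverse of the pattern of the synthesis enzymes, and the 1.98-fold difference had an adjusted p-value of 3.14e-05 (log2 0.99 ± 0.16). SHMT2, the mitochondrial form, had 198, 211 and 85.7 CPM in iLuc and 105, 115 and 166 CPM in iEF. The groups overlapped and the log2 difference of 0.35 ± 0.23 was not called (adjusted p-value 0.256). Without iLuc replicate 3 it became 0.72 ± 0.16, with an adjusted p-value of 0.00132. MTHFD2 followed SHMT2 in its split, with 425, 395 and 152 CPM in iLuc and 131, 133 and 171 CPM in iEF, and was called 2.18-fold higher (log2 1.13 ± 0.23, adjusted p-value 0.000456).

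ASNS, asparagine synthetase, varied most within iLuc, at 393, 464 and 46.1 CPM, while iEF had 58.0, 81.6 and 145 CPM. The first pair of iLuc libraries lay above every iEF library and the third lay below every one. The fitted difference of 3.33-fold (log2 1.74 ± 0.50, adjusted p-value 0.00818) rose to 5.27-fold without iLuc replicate 3, and lost its call without iLuc replicate 1 (adjusted p-value 0.0972), iLuc replicate 2 (0.0558) or iEF replicate 1 (0.0509). It was not called either in the ComBat-adjusted values (0.123) or in a fit of iLuc and iEF alone (0.127).

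The exchangers behaved differently from each other. SLC1A4 had 147, 144 and 153 CPM in iLuc, the smallest SD for its mean of the 10 genes in that group, and 56.4, 64.0 and 84.4 CPM in iEF. It was 2.17-fold higher in iLuc (log2 1.12 ± 0.14, adjusted p-value 1.82e-06), and replicate 3 was no lower than the others. SLC1A5 had 149, 161 and 97.6 CPM in iLuc and 77.6, 65.8 and 111 CPM in iEF. Its groups overlapped, and the 1.61-fold difference (log2 0.69 ± 0.19, adjusted p-value 0.00609) was not called without iLuc replicate 2 (adjusted p-value 0.0528) or iEF replicate 2 (adjusted p-value 0.0535).

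Within replicate sets the 9 genes split by set. In set 1 and in set 2 all 9 were higher in iLuc than in the iEF library of the same number, with median log2 differences of 1.70 and 1.44. In set 3 PHGDH, PSAT1, SHMT1 and SLC1A4 were higher, and PSPH, SHMT2, MTHFD2, ASNS and SLC1A5 were lower, with a median of -0.17. The direction of all tested genes within a set is not given here, for this or any later comparison. The call of 8 genes became 9 of 9 without iLuc replicate 3 and 6 without iLuc replicate 1. Without iLuc replicate 3, 18.28% of all tested genes were called higher and 21.04% lower. The shares without iLuc replicate 1 are not given here. Without iLuc replicate 3 the fold differences were 6.37 for PSAT1, 3.99 for PHGDH, 2.90 for PSPH, 2.85 for MTHFD2, 2.20 for SLC1A4, 1.91 for SLC1A5 and 1.74 for SHMT1. In bulk RNA a higher level in every cell and a larger share of cells with a high level cannot be told apart.

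**Figure D2:**
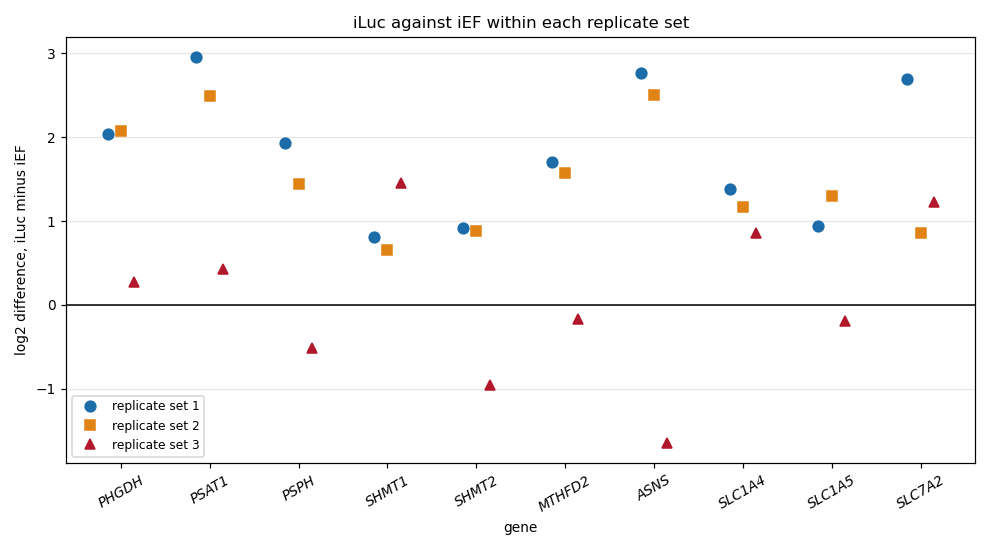
Log2 difference between the iLuc and the iEF library (vertical axis) of the same replicate set, for each of the 10 genes (horizontal axis). Sets 1 and 2 lie above 0 for the 9 genes other than SLC7A2, and set 3 lies below 0 for PSPH, SHMT2, MTHFD2, ASNS and SLC1A5, with ASNS at -1.65. SLC7A2, which lies above 0 in every set, was chosen as higher in iLuc than in iEF.

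Wildtype EWS/FLI cDNA did not bring the group back to the level of iLuc. All 9 tested genes were called lower in WT-EF than in iLuc, where 8.52% of all tested genes were called lower and 9.78% higher. The differences, which share the iLuc libraries with those above, ranged from a log2 of -0.52 for SHMT1 to -2.65 for ASNS. Without iLuc replicate 3, 8 of the 9 were called lower, where 10.8% of all tested genes were called lower and 10.9% higher. SHMT1 was not called without that library (log2 -0.33, adjusted p-value 0.147). ASNS was 6.29-fold lower with all libraries and 9.68-fold lower without that one. Within sets, all 9 genes were lower in WT-EF in sets 1 and 2, with medians of -1.95 and -1.58, while in set 3 3 were higher and 6 lower, with a median of -0.13. Leaving out iLuc replicate 1 left 5 calls, for PHGDH, PSAT1, MTHFD2, ASNS and SLC1A4. The share over all tested genes in that setting is not given here. SHMT1 was also lost without WT-EF replicate 1 or 3 (adjusted p-values 0.0879 and 0.162), and SLC1A5 without iLuc replicate 2 or WT-EF replicate 1 or 2 (adjusted p-values from 0.0891 to 0.144).

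Against the depleted baseline, WT-EF changed 3 of the 9 genes, 1 up and 2 down, where 11.4% of all tested genes were called higher and 16.9% lower. SLC1A4 fell further below iEF, to 37.4, 31.0 and 40.9 CPM, with no overlap. The fall was 1.87-fold, a log2 difference of -0.90 ± 0.14 with an adjusted p-value of 5.51e-05, and it kept its call in every alternative tried (adjusted p-values from 1.26e-09 to 0.00144). So SLC1A4 stood above iEF in every iLuc library and below it in every WT-EF library, and its WT-EF level was 4.07-fold under that of iLuc (log2 -2.02 ± 0.15, adjusted p-value 5.00e-09).

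SHMT2 was also lower in WT-EF than in iEF, at 75.2, 88.2 and 78.6 CPM against 105, 115 and 166 CPM (log2 -0.68 ± 0.23, adjusted p-value 0.0326). This call was lost when iEF replicate 3 was left out (log2 -0.40, adjusted p-value 0.260) and when any 1 WT-EF library was, and in the ComBat-adjusted values (adjusted p-value 0.119). SHMT1 was the gene that rose, from a mean of 16.0 ± 2.25 CPM in iEF to 22.2 ± 2.15 CPM in WT-EF (SD, n = 3), a log2 difference of 0.47 ± 0.16 with an edgeR adjusted p-value of 0.0287. It was not called without iEF replicate 2 or 3 or WT-EF replicate 1 or 2, with adjusted p-values from 0.0558 to 0.143.

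The synthesis enzymes showed no call in WT-EF against iEF. PHGDH had 69.7, 105 and 103 CPM in WT-EF, a log2 difference of 0.24 ± 0.26 from iEF, and PSAT1 had 99.4, 117 and 116 CPM (0.20 ± 0.35). Both overlapped iEF. PSPH, at 51.1, 51.8 and 54.0 CPM, differed by -0.12 ± 0.29. ASNS, at 41.4, 50.7 and 56.0 CPM, lay below all 3 iEF libraries, but its difference of -0.92 ± 0.48 was not called (adjusted p-value 0.173), nor was that of MTHFD2 (-0.40 ± 0.23, adjusted p-value 0.216).

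With the altered forms of the fusion few of the 9 genes were called against iEF, although most fitted differences were negative. Of the 9, 1 was positive in mut9, 0 in DAF, 1 in DAF-mut9 and 1 in del22. With mut9, 1 of 9 was called, and it was lower, where 6.22% of all tested genes were called higher and 8.33% lower. That gene was SLC1A4, at 42.8, 48.1 and 37.9 CPM (log2 -0.66 ± 0.14, adjusted p-value 0.00296), a call lost in sets 1 and 2 alone. With DAF, 1 of 9 was called lower, where 3.41% of all tested genes were called higher and 4.02% lower. That gene was ASNS, at 17.2, 23.8 and 38.3 CPM, its lowest group, 3.58-fold under iEF (log2 -1.84 ± 0.49, adjusted p-value 0.0246). The ASNS call was lost without iEF replicate 3, its highest iEF library, where the log2 difference was -1.35 with an adjusted p-value of 0.182, and without DAF replicate 1 (adjusted p-value 0.120) or DAF replicate 2 (adjusted p-value 0.115).

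With del22, which has no EWS domain, edgeR and DESeq2 both called 0 of the 9 genes against iEF, while 4 had an unadjusted p-value below 0.05. The share of all tested genes called was 0.881% higher and 1.79% lower. With DAF-mut9 both tools also called 0 of 9, with 2 at an unadjusted p-value below 0.05, where 1.26% of all tested genes were called higher and 2.14% lower. ASNS had 23.1, 43.5 and 36.8 CPM in del22 and 29.4, 36.5 and 42.1 CPM in DAF-mut9. These values lay below every iEF library, yet the log2 differences of -1.46 ± 0.49 and -1.38 ± 0.49 were not called (adjusted p-values 0.131 and 0.146). ASNS was called lower in both when replicate sets 1 and 2 were fitted alone, and when each group was fitted with iEF alone. Median log2 differences of the 9 genes from iEF were -0.12 in WT-EF, -0.39 in mut9, -0.30 in DAF, -0.29 in DAF-mut9 and -0.49 in del22, against medians between -0.03 and 0.02 over all tested genes. These 5 comparisons share the iEF libraries. The medians differed between replicate sets. In sets 1, 2 and 3 they were 0.06, 0.08 and -0.40 in WT-EF and -0.31, 0.21 and -0.98 in mut9. In DAF they were -0.45, -0.40 and -0.40, in DAF-mut9 -0.15, -0.06 and -0.77, and in del22 -0.45, -0.05 and -0.73. In set 2 of mut9, 5 of the 9 genes were higher than in iEF.

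**Figure D3:**
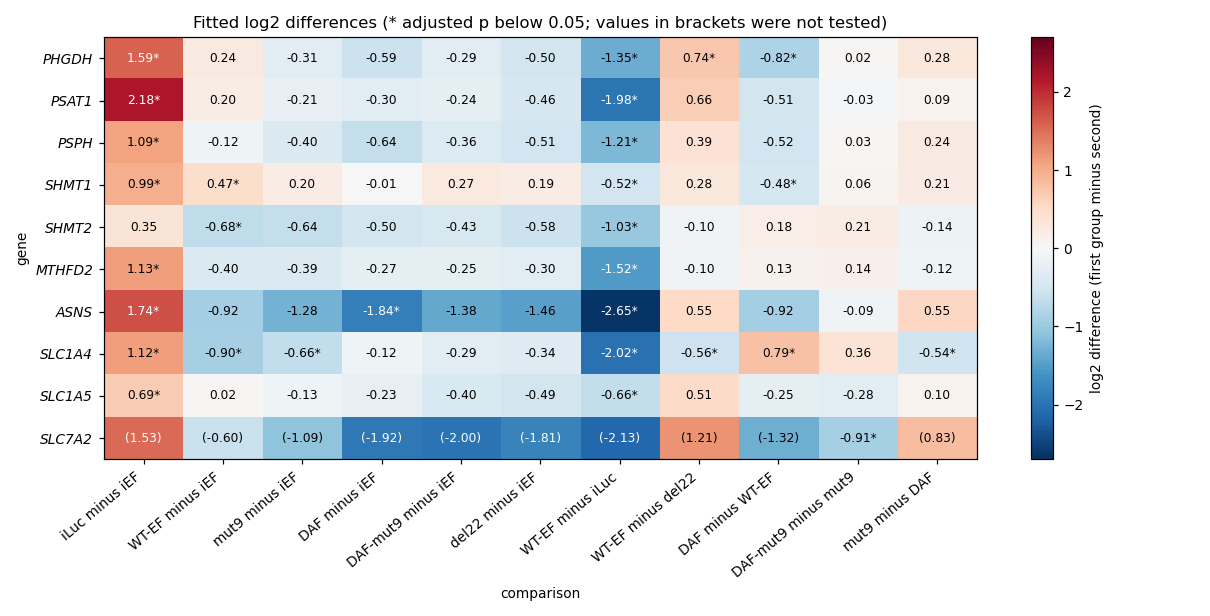
Fitted log2 differences of the 10 genes (rows) in 11 comparisons (columns), with colour from blue (lower in the first group) to red (higher), an asterisk where the adjusted p-value was below 0.05, and brackets where no test was made. The iLuc minus iEF column is red and the WT-EF minus iLuc column blue for the 9 genes other than SLC7A2. SLC7A2 has the same colours there but was chosen as higher in iLuc than in iEF. SLC1A4 turns from 1.12 in iLuc to -0.90 in WT-EF, both against iEF.

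Comparison with del22 asked what the EWS domain adds when every cell carries a cDNA. WT-EF differed from del22 at 2 of 9 genes, 1 higher and 1 lower, where 10.7% of all tested genes were called higher and 14.5% lower. PHGDH was higher in WT-EF, at 69.7, 105 and 103 CPM against 43.9, 66.1 and 56.4 CPM with no overlap (1.67-fold, log2 0.74 ± 0.27, adjusted p-value 0.0480). The PHGDH call was lost when any 1 library of either group was left out, with adjusted p-values from 0.0511 to 0.146. SLC1A4 was lower in WT-EF than in del22, at a log2 difference of -0.56 ± 0.14 (adjusted p-value 0.00544), lost without WT-EF replicate 2 (adjusted p-value 0.0627). PSAT1, PSPH, SHMT1, SLC1A5 and ASNS were not called, with log2 differences of 0.66, 0.39, 0.28, 0.51 and 0.55. SHMT2 and MTHFD2, at -0.10 each, were not called either. SLC1A5, with an adjusted p-value of 0.0537, was called in 6 alternatives, among them the ComBat-adjusted values, the fit without the replicate block and the fit of WT-EF and del22 alone.

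The mut9 form differed from del22 at 0 of 9 genes in edgeR and in DESeq2, with 1 at an unadjusted p-value below 0.05, where 4.52% of all tested genes were called higher and 4.64% lower. DAF differed from del22 at 0 of 9 in both tools and at 0 of 9 by unadjusted p-value, where 0.789% of all tested genes were called higher and 0.183% lower. DAF-mut9 and del22 could not be separated at any gene. Both tools called 0% of the 30549 tested genes, although 671 had an unadjusted p-value below 0.05 in edgeR, and none of these was among the 9.

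In direct comparison of DAF with WT-EF, calls fell on PHGDH, SHMT1 and SLC1A4, and only that of SLC1A4 held in every alternative. DAF differed from WT-EF at 3 of 9 genes, 1 higher and 2 lower, where 14.3% of all tested genes were called higher and 10.6% lower. PHGDH was lower in DAF, at 41.3, 43.0 and 70.6 CPM (1.77-fold, log2 -0.82 ± 0.27, adjusted p-value 0.0277), although DAF replicate 3 lay within the WT-EF range. SHMT1 was lower too, at 15.9, 13.4 and 18.5 CPM in DAF (log2 -0.48 ± 0.16, adjusted p-value 0.0294). Each of these calls was lost when DAF replicate 1, DAF replicate 2 or WT-EF replicate 2 was left out, that of PHGDH also without WT-EF replicate 3 and that of SHMT1 also without WT-EF replicate 1, with adjusted p-values from 0.0551 to 0.170. SLC1A4 was higher in DAF than in WT-EF, at 68.2, 53.8 and 65.9 CPM with no overlap (log2 0.79 ± 0.14, adjusted p-value 0.00031), and kept that call in every alternative tried.

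SLC1A4 also set mut9 apart from DAF. The mut9 level was lower by a log2 of -0.54 ± 0.14 (adjusted p-value 0.0256), the 1 call among 9 genes, where 3.13% of all tested genes were called higher and 3.48% lower. It was lost without DAF replicate 1 or 3 or mut9 replicate 1 or 3, with adjusted p-values from 0.0600 to 0.159, and in the ComBat-adjusted values (0.0525), the fit of mut9 and DAF alone (0.0546) and sets 1 and 2 alone (0.0586). The order of mean SLC1A4 levels was iLuc 148 ± 4.59, iEF 68.3 ± 14.5, DAF 62.6 ± 7.76, DAF-mut9 55.3 ± 5.32, del22 53.8 ± 5.85, mut9 42.9 ± 5.10 and WT-EF 36.4 ± 5.02 CPM (SD, n = 3). Between neighbours in this order, iLuc lay above iEF beyond the spread, while iEF and DAF, DAF-mut9 and del22, and mut9 and WT-EF each overlapped and were not called apart. DAF and DAF-mut9 overlapped too, and were not tested. Every mut9 library lay below every del22 library, but the log2 difference of -0.32 ± 0.14 was not called (adjusted p-value 0.208).

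SLC7A2, the cationic amino acid carrier on chromosome 8, was the gene selected on its readout. It had 84.7, 101 and 73.0 CPM in iLuc, and replicate 3 was close to the others. In iEF it had 13.0, 55.8 and 31.1 CPM, with iEF replicate 1 far below its mates. WT-EF had 12.7, 29.7 and 20.5 CPM and mut9 had 10.7, 19.4 and 13.7 CPM. The lowest groups were del22 with 6.83, 10.2 and 9.11 CPM, DAF with 6.30, 9.86 and 8.13 CPM, and DAF-mut9 with 6.93, 6.80 and 8.54 CPM. Every DAF, DAF-mut9 and del22 library lay below every iEF library, while iEF replicate 1 lay among the WT-EF and mut9 libraries.

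As a description, fitted log2 differences of SLC7A2 from iEF were 1.53 in iLuc, -0.60 in WT-EF, -1.09 in mut9, -1.81 in del22, -1.92 in DAF and -2.00 in DAF-mut9. WT-EF stood 1.21 above del22 and DAF stood -1.32 from WT-EF on the same scale. Tests were kept to the pairs of groups that the choice of the gene did not use. SLC7A2 was chosen as low in del22, and DAF-mut9 was not called apart from del22 at any tested gene. The test of DAF-mut9 is therefore not fully independent of that choice. DAF-mut9 was lower than mut9 with no overlap, by a log2 of -0.91 ± 0.25 (1.87-fold, adjusted p-value 0.0249), the 1 call among 10 genes, where 5.15% of all tested genes were called higher and 4.68% lower. It was lost without any 1 mut9 library or DAF-mut9 replicate 2 (adjusted p-values from 0.0505 to 0.192), without the replicate block (0.116) and in the ComBat-adjusted values (0.141). The difference between mut9 and WT-EF, -0.49 ± 0.25, was not called (adjusted p-value 0.308). In that comparison edgeR and DESeq2 called 0 of 10 genes and 0 had an unadjusted p-value below 0.05, where 4.95% of all tested genes were called higher and 1.2% lower.

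Per kilobase of annotated exon, which allows levels to be set between genes, iEF held 43.6 CPM of PSAT1, 28.0 of SHMT2, 25.5 of SLC1A5, 20.4 of PSPH, 19.4 of ASNS, 12.7 of MTHFD2, 9.83 of SLC1A4, 8.44 of PHGDH, 4.22 of SLC7A2 and 2.28 of SHMT1. In iLuc the mean of PSAT1 was 197 CPM per kilobase. The exon lengths join all annotated isoforms, from 2206 bases for PSAT1 to 11443 bases for MTHFD2, and so understate genes with rarely used long ends.

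The genes lie apart in the genome (GENCODE release 44 on GRCh37). PHGDH is on chromosome 1 at 120191034 to 120286841, PSAT1 on chromosome 9 at 80912041 to 80945009, and PSPH on chromosome 7 at 56078744 to 56119297. ASNS is on chromosome 7 at 97480989 to 97501854, MTHFD2 on chromosome 2 at 74413299 to 74444692 and SLC1A4 on chromosome 2 at 65215611 to 65250999. SHMT1 is on chromosome 17 at 18231174 to 18266877, SHMT2 on chromosome 12 at 57623356 to 57628718 and SLC1A5 on chromosome 19 at 47278140 to 47291851. Some counts are uncertain. Exons of MTHFD2 share 1619 bases with genes on the opposite strand, those of SLC1A5 794 bases, SHMT2 385 and SHMT1 197, and the strand setting of the counting is not given in the sources used here. ASNS shares 2415 exon bases with an overlapping gene model on its own strand. PSAT1, PSPH, SHMT1, MTHFD2 and ASNS also have named pseudogenes, between which near-identical reads may be divided.

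Because several of these genes moved together in the iLuc libraries, promoters were searched for TGATGNAA, the form of the composite C/EBP and ATF element through which ATF4 acts, of which the one in ASNS is a well known nutrient response element. RefSeq promoters (GRCh38.p14, 250 bases before to 50 after the start) were present for 7 of the 10 genes, PHGDH, PSAT1, SHMT1, MTHFD2, ASNS, SLC1A4 and SLC1A5, and not for PSPH, SHMT2 and SLC7A2. On both strands, 3.62% of 34943 promoters of all genes held the motif, and 3 of the 11 promoters of these genes did. The windows of 30 bases around each match are shown with the motif in capitals, each read on the strand of its gene. The ASNS window is at chr7:97872458-97872487 on the minus strand, with the motif starting 68 bases before the start site. The SLC1A4 window is at chr2:64989381-64989410 on the plus strand, 7 bases before, and holds the motif reversed. The SLC1A5 window is at chr19:46784893-46784922 on the minus strand, 97 bases before.
ASNS: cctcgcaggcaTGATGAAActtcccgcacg
SLC1A4: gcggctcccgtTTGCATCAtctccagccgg
SLC1A5: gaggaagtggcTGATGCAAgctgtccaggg
A match is a description of the letters. ASNS, SLC1A4 and SLC1A5 each also had a promoter with 0 matches, and the promoter in use in these cells is not known here. A search for 1 motif in 300 bases cannot show that the genes without a match lack such an element. Whether a match goes with the split of the iLuc libraries was not tested.

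The library split was also present in the list of the amino acid response and ATF4 targets. In all 18 tested genes iLuc replicate 3 was the lowest iLuc library, and in 17 it was more than 2-fold below both others. The part of this split in the iLuc results of the 9 genes was not tested. ATF4 itself had 614, 644 and 328 CPM in iLuc and 327, 466 and 447 CPM in iEF, a log2 difference of 0.37 ± 0.17 that was not called (adjusted p-value 0.0903). Without iLuc replicate 3 the ATF4 difference was 0.66 ± 0.10 and was called higher in iLuc (edgeR adjusted p-value 2.67e-05). TRIB3, a pseudokinase induced by ATF4, had 178, 179 and 7.52 CPM in iLuc and 20.7, 10.6 and 41.9 CPM in iEF. ATF5, a related transcription factor, had 204, 252 and 37.5 CPM in iLuc, and CHAC1, which degrades glutathione, had 22.2, 20.0 and 1.08 CPM. In each of these genes iLuc replicate 3 was the lowest iLuc library by far. The highest library of DDIT3 and SESN2, stress genes of the same response, was iEF replicate 3, at 68.2 and 91.1 CPM against 23.8 and 17.2 CPM and 25.2 and 18.7 CPM in its mates. TRIB3, ATF5, CHAC1, DDIT3 and SESN2 were picked after their values were seen.

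**Figure D4:**
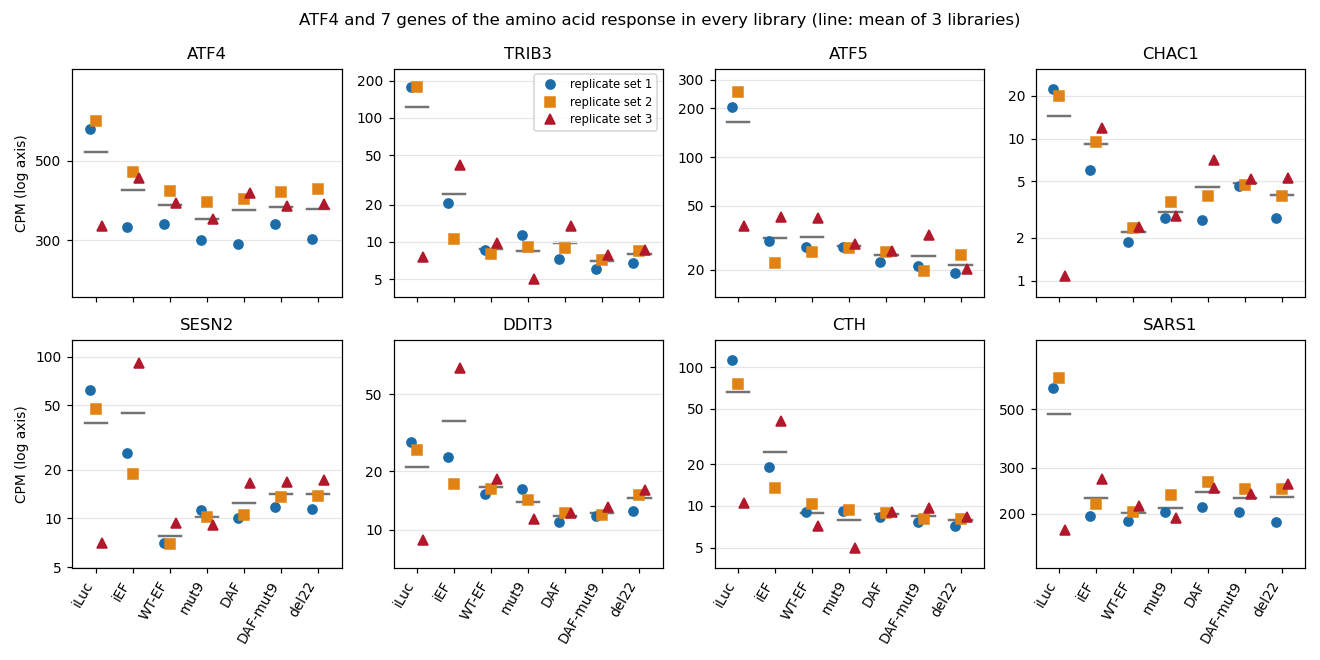
CPM (vertical log axis) of ATF4 and 7 genes of the amino acid response in every library of the 7 groups (horizontal axis), with a symbol for each replicate set and a line at the mean of 3 libraries. In iLuc the symbol of replicate set 3 lies below those of sets 1 and 2 in every panel, by 178 and 179 against 7.52 CPM for TRIB3, and iEF replicate 3 is the highest library of SESN2 and DDIT3. The 7 genes were picked after their values were seen, so their shared direction is a description. CTH is from the folate and methionine cycle list and SARS1 from the transfer RNA synthetase list.

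Of 18 genes in the list of the amino acid response and ATF4 targets, 6 were called higher and 3 lower in iLuc than in iEF, with a median log2 difference of 0.08, against 18.7% and 22.4% of all tested genes. EIF4EBP1, a repressor of translation, was called higher in iLuc (2.92-fold, adjusted p-value 3.04e-05, and 3.80-fold without iLuc replicate 3), and NUPR1, ATF3 and PPP1R15A, stress-induced regulators, were called lower (log2 -1.88, -1.37 and -1.25). Without iLuc replicate 3 these were -1.17, -0.81 and -0.71, and PPP1R15A was not called (adjusted p-value 0.0567). Without iLuc replicate 3 the count was 9 higher and 2 lower with a median of 0.71, against 18.28% and 21.04% of all tested genes. In WT-EF 12 of 18 were called lower than in iEF and none higher (median -1.29), against 16.9% lower and 11.4% higher over all tested genes. The counts called lower than iEF were 8 in mut9 (8.33% over all tested genes), 4 in DAF (4.02%) and 2 in DAF-mut9 (2.14%). In del22 edgeR called 0 of 18, with 9 at an unadjusted p-value below 0.05 and 1 called lower by DESeq2. Without iEF replicate 3 the edgeR counts were 6 in WT-EF, 1 in mut9 and 0 in DAF, DAF-mut9 and del22, the last 3 with 3, 2 and 1 at an unadjusted p-value below 0.05. The shares of all tested genes called lower were then 14.2%, 6.14%, 2.28%, 0.689% and 0.600%. Sets 1 and 2 alone, an alternative chosen after seeing the data that also leaves out iEF replicate 3, gave 13 in WT-EF, 8 in mut9, 8 in DAF, 5 in DAF-mut9 and 4 in del22. There the shares called lower were 14.0%, 6.73%, 2.93%, 0.933% and 0.432%. STC2, a secreted stress glycoprotein, had 42.6, 56.6 and 84.5 CPM in iEF and 8.34, 8.15 and 11.6 CPM in WT-EF (log2 -2.69 ± 0.40, adjusted p-value 2.64e-05). It was picked after its values were seen.

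Cytosolic transfer RNA synthetases, which load amino acids for translation, included 8 of 20 called higher and 2 called lower in iLuc than in iEF. The shares over all tested genes were 18.7% and 22.4%, and the median log2 difference of the list was 0.44. Without iLuc replicate 3 the counts were 14 and 3, against 18.28% and 21.04% of all tested genes. NARS1, VARS1 and LARS1, for asparagine, valine and leucine, were higher by log2 differences of 0.90, 0.77 and 0.75. HARS1 and WARS1, for histidine and tryptophan, were lower, and HARS1 had 34.9, 38.2 and 52.1 CPM in iLuc against 157, 114 and 152 CPM in iEF (log2 -1.76 ± 0.13, adjusted p-value 7.30e-10). Without iEF replicate 3 the counts against iEF were 12 and 2, against 15.8% and 20.3% of all tested genes. In WT-EF against iLuc, 11 of 20 were called lower and 1 higher, against 8.52% and 9.78% of all tested genes.

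Other genes of serine and glycine metabolism did not share a direction. Of 17, 4 were called higher and 5 lower in iLuc than in iEF, against 18.7% and 22.4% of all tested genes. Their median log2 difference was -0.09. DLD, a subunit of the glycine cleavage system shared with other complexes, was higher (log2 0.62, adjusted p-value 3.21e-05). SFXN3, a mitochondrial serine carrier, was lower, at 17.4, 17.9 and 20.6 CPM in iLuc and 51.4, 58.9 and 46.5 CPM in iEF (log2 -1.49 ± 0.12, adjusted p-value 1.63e-09). PTDSS1 and PTDSS2, which make phosphatidylserine, were lower by log2 differences of -0.50 and -0.34. GLDC, the glycine decarboxylase, was lower in iLuc (0.642, 0.619 and 0.526 CPM) than in iEF (5.83, 2.94 and 6.59 CPM), at a log2 difference of -3.03 ± 0.28, and was picked after its values were seen.

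The folate and methionine cycle list had 10 of 24 genes called higher and 2 lower in iLuc than in iEF (median log2 0.36). All tested genes had 18.7% and 22.4%, and the list counts were the same without iLuc replicate 3. All tested genes then had 18.28% and 21.04%. In WT-EF against iEF 10 were called higher and 5 lower (11.4% and 16.9% of all tested genes). Without iEF replicate 3 these were 5 and 3 (8.67% and 14.2%). CBS, which starts the conversion of homocysteine and serine to cysteine, had 215, 223 and 102 CPM in iLuc and 32.3, 45.8 and 38.5 CPM in iEF (4.60-fold, adjusted p-value 3.59e-07, and 5.65-fold without iLuc replicate 3). In WT-EF CBS had 65.1, 98.6 and 57.6 CPM, 1.87-fold above iEF (adjusted p-value 0.00723). DHFR2, a dihydrofolate reductase, and AHCY, which hydrolyses S-adenosylhomocysteine, were higher by log2 differences of 1.18 and 1.10. SLC25A32, the mitochondrial folate carrier, and FPGS, which adds glutamates to folate, were lower by -0.76 and -0.47.

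Among the other amino acid transporters, 28 of 29 listed genes were tested, with a median log2 difference of 0.03 between iLuc and iEF. Of these, 8 were called higher and 8 lower in iLuc, against 18.7% and 22.4% of all tested genes. SLC43A1, a carrier of large neutral amino acids, was higher, at 27.5, 23.0 and 15.2 CPM in iLuc and 4.88, 5.66 and 4.49 CPM in iEF (4.38-fold, adjusted p-value 4.15e-07). SLC1A1, a glutamate and aspartate carrier of the same family as SLC1A4 and SLC1A5, was lower, at 21.1, 33.2 and 25.8 CPM against 91.9, 116 and 120 CPM (log2 -2.05 ± 0.16, adjusted p-value 1.76e-09). SLC36A4 and SLC38A7 were lower by -0.94 and -0.90.

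Regulators tied to these genes showed 3 of 13 called higher and 5 lower in iLuc than in iEF, against 18.7% and 22.4% of all tested genes. MEN1, the menin scaffold protein, was 1.42-fold higher in iLuc (26.2, 25.9 and 30.2 CPM against 21.2, 20.1 and 16.6 CPM, adjusted p-value 0.00499) and was not called against iEF in any cDNA group. EHMT2, a histone methyltransferase, was higher by a log2 of 0.72. EIF2AK2 and EIF2AK3, kinases that act above ATF4, and KDM4C, a histone demethylase, were lower by -1.38, -1.08 and -1.28. MYC had 167, 177 and 134 CPM in iLuc and 120, 183 and 230 CPM in iEF, with no call (log2 -0.14, adjusted p-value 0.578). MYCN was scarce, at 0.818 to 1.35 CPM in iLuc and 0.117 to 0.216 CPM in iEF.

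**Figure D5:**
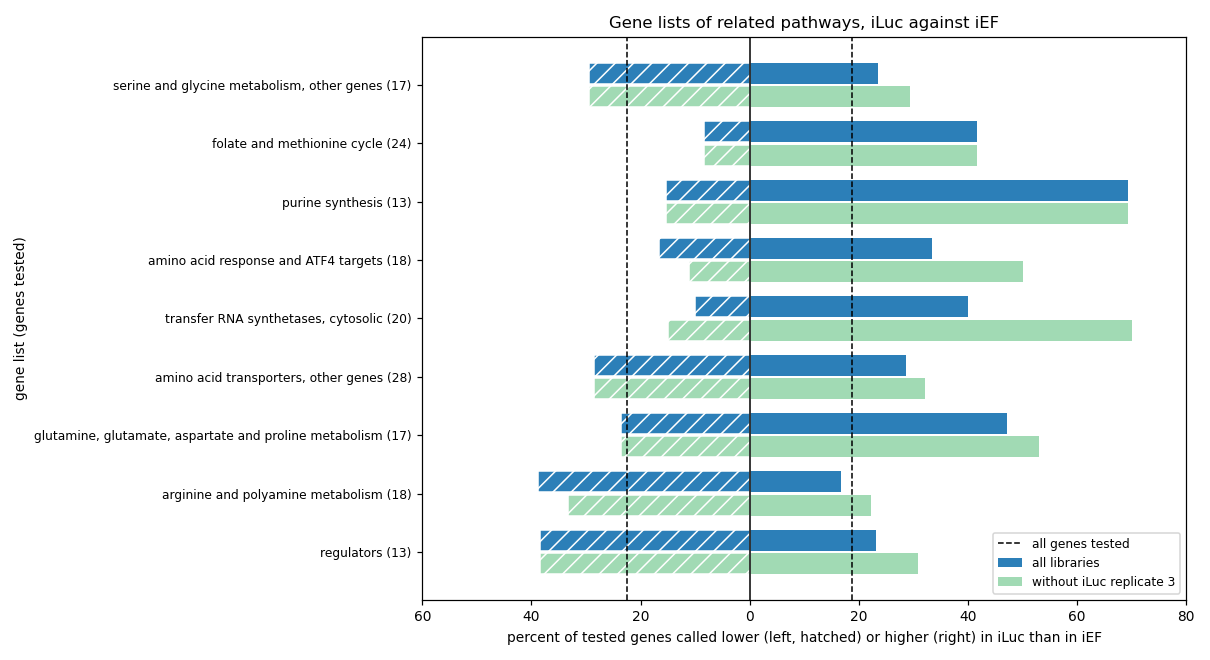
Percent of the tested genes of each list (vertical axis, number tested in brackets) called higher (right) or lower (left, hatched) in iLuc than in iEF, with all libraries and without iLuc replicate 3. Dashed lines mark the shares over all tested genes with all libraries, 18.7% and 22.4%. Without iLuc replicate 3 these shares were 18.28% and 21.04%. The bars of the transfer RNA synthetases lengthen from 8 to 14 of 20 genes called higher when that library is left out.

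Across the 7 group means of log2 CPM, values of Pearson's r were 0.99 between PHGDH and PSAT1 and between PHGDH and PSPH, 0.91 between PHGDH and SHMT1 and 0.71 between PHGDH and SLC1A4. The order of the groups below iLuc differed between genes, with WT-EF next after iLuc for PHGDH and lowest for SHMT2. SHMT1 and SHMT2, which catalyse the same reaction, had the lowest value of the group, 0.50. These are descriptions over 7 points that share libraries and in which iLuc lies far from the rest. Among 10778 ranked genes, those most like PHGDH on this measure were RPL10A, NEK4, FAM72A, LSM6 and ENSG00000196331, with r from 0.994 to 0.996, and those most like SLC7A2 were ELOVL2, KYAT3, CCDC117, NIT1 and HSD17B4, with r from 0.987 to 0.997. RPL10A, a ribosomal protein gene, ran from a mean of 212 CPM in DAF to 328 CPM in iLuc.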

How the data were processed

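RNA-seq of A673 cells was analysed from 21 libraries. The authors aligned paired-end reads to hg19 with STAR (2.5.1b in the submitters' processing notes) and deposited the raw count of each gene from htseq-count. Annotation release and strand setting are not given in the sources used here. The authors also deposited ComBat-adjusted values, a signal corrected for replicate set, used here only as an alternative. A deposited table of the authors' fold changes and p-values was not used.

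Counts were fitted in R 4.3.3 with edgeR 4.0.16 (quasi-likelihood, TMM, group and replicate set as terms, all 21 libraries, 15 comparisons), keeping genes whose mean count reached 1, with Benjamini-Hochberg adjustment over 30549 genes. Replicate set was a term because the authors adjusted each set for batch effects. Differences within sets used log2 CPM with a prior count of 2. DESeq2 1.42.0 and limma 3.58.1 (log2 of ComBat values plus 1) served as alternatives. The fit was also run on simulated counts with changes in mut9 alone, no replicate-set effect and no outlying library. That run cannot speak to the split within iLuc.

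Members and lists were chosen with earlier results of these data known. Beyond the 10 genes and ATF4, MYC, MYCN, MEN1 and the markers, up to 3 genes per list and direction were named by size of the log2 difference in iLuc minus iEF, if called, above 5 CPM on average and of equal sign in the 3 sets, plus the 5 most like PHGDH and SLC7A2. Genes named outside this rule are marked. A gene that the rule names is not reported here.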

Additional observations from a re-analysis of the deposited data

How the results depend on the processing

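Counts of called genes among the tested members moved most where the spread or the genes tested changed, and the cause was not tested. Shares over all genes are not given here for most of these settings. The counts below therefore do not show whether a change was particular to these genes. In sets 1 and 2 alone, 2.82% of all tested genes were called higher and 2.93% lower for DAF minus iEF. For DAF-mut9 minus iEF these were 0.728% and 0.933%, and for del22 minus iEF 0.336% and 0.432%. Without the filter on low counts, the counts against iEF were 6 for del22 (0 with the filter), 3 for DAF-mut9 (0), 4 for DAF (1), 5 for mut9 (1) and 5 for WT-EF (3), and they were 6 for WT-EF minus del22 (2), 4 for mut9 minus WT-EF (0), 6 for DAF minus WT-EF (3) and 2 for mut9 minus DAF (1). With only the groups compared, the counts against iEF were 1 for del22, 1 for DAF-mut9, 3 for DAF, 2 for mut9 and 5 for WT-EF, with 6 for WT-EF minus del22, 1 for mut9 minus del22, 6 for mut9 minus WT-EF, 6 for DAF minus WT-EF, 3 for DAF-mut9 minus mut9 and 0 for mut9 minus DAF. ComBat-adjusted values gave 0 for DAF minus iEF, 4 for WT-EF minus del22, 0 for DAF-mut9 minus mut9 and 0 for mut9 minus DAF, and DESeq2 gave 2 for mut9 minus iEF. Sets 1 and 2 alone, chosen after seeing the data, gave 2 for DAF minus iEF, 1 for DAF-mut9 minus iEF, 1 for del22 minus iEF, 4 for WT-EF minus del22, 6 for DAF minus WT-EF, 0 for DAF-mut9 minus mut9 and 2 for mut9 minus DAF (PHGDH and ASNS, with SLC1A4 not called). Leaving out 1 library gave 6 to 9 for iLuc minus iEF, 1 to 3 for WT-EF minus iEF, 1 to 2 for mut9 minus iEF, 0 to 1 for DAF minus iEF, 1 for WT-EF minus del22, 5 to 8 for WT-EF minus iLuc, 1 to 3 for DAF minus WT-EF, 0 to 1 for DAF-mut9 minus mut9 and 0 to 1 for mut9 minus DAF. No called value reversed.

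The replicate block is a term in every main call. Same-numbered libraries deviated together only in part, with correlations from -0.13 to 0.56 (median 0.16, 63 pairs) against -0.49 to 0.29 (median -0.09, 126 pairs) for other pairs. Without the replicate block the count for DAF-mut9 minus mut9 went from 1 to 0, and PHGDH in WT-EF minus del22 was not called (adjusted p-value 0.0704 in edgeR), while SLC1A5 there was (0.0486).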

Other observations

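Purine synthesis, which consumes the one-carbon units and glycine that serine supplies, had 9 of 13 genes called higher and 2 lower in iLuc than in iEF (median log2 difference 0.45), the same counts as without iLuc replicate 3, against 18.7% and 22.4% of all tested genes. The shares over all tested genes without iLuc replicate 3 were 18.28% and 21.04%. In 11 of the 13 iLuc replicate 3 was the highest iLuc library. WT-EF had 8 called higher and 2 lower than del22 (10.7% and 14.5% over all genes), and 6 higher and 2 lower than iEF (11.4% and 16.9%). Without iEF replicate 3 the counts against iEF were 3 and 2 (8.67% and 14.2%). PFAS, an enzyme of the purine ring pathway, had 70.6, 59.2 and 108 CPM in iLuc, 40.2, 39.2 and 36.6 CPM in iEF and 72.0, 74.6 and 79.5 CPM in WT-EF. IMPDH1 and GMPS, of guanine nucleotide synthesis, were higher in iLuc by log2 differences of 0.68 and 0.66, and ADSS2, of adenine nucleotide synthesis, was lower by -1.11.

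Of 18 genes of arginine and polyamine metabolism, the fate of the amino acids that SLC7A2 carries, 3 were called higher and 7 lower in iLuc than in iEF. The shares over all tested genes were 18.7% and 22.4%, and the median log2 difference of the list was -0.18. NOS1, a nitric oxide synthase, had 178, 186 and 86.0 CPM in iLuc against 18.6, 13.6 and 15.1 CPM in iEF (9.01-fold, and 10.4-fold without iLuc replicate 3), and ARG2, the mitochondrial arginase, was 4.16-fold higher. ASS1, which makes the precursor of arginine, had 30.1, 49.3 and 5.09 CPM against 266, 225 and 159 CPM, and SAT1, which acetylates polyamines, was lower by a log2 of -2.95. Of 17 tested genes of glutamine, glutamate, aspartate and proline metabolism, 8 were called higher and 4 lower, against the same 18.7% and 22.4%. PYCR1, of proline synthesis, was 1.71-fold higher in iLuc (2.16-fold without iLuc replicate 3), and OAT, ornithine aminotransferase, was lower by a log2 of -1.49.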
